A study of Mus musculus with 2 samples.

Results

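The widest H3K27ac peaks at the ends of protein-coding genes were described in mouse MA9 leukaemia cells, which are acute myeloid leukaemia cells transformed by the MLL-AF9 fusion. Acetylation of histone H3 at lysine 27 had been mapped by ChIP-seq in 1 library with floxed, intact Gata2 (Gata2 f/f) and 1 library in which both copies were deleted (Gata2 -/-, Gata2 KO). Per the labels, leukaemia cells were taken from the bone marrow of primary animals, received Cre or the control MIT, and were sorted on GFP and tdTomato. Both libraries were made after 7 to 9 days of culture in IMDM with 15% serum, IL-3, IL-6 (10 ng/mL) and SCF (20 ng/mL), so that the cytokines and the fusion are shared by both genotypes. The labels give no animal age, strain or number of animals, and do not say whether a library is from 1 animal or several. Peaks of the f/f list on chromosomes 1 to 19 were kept where they came within 1000 bp of either end of a protein-coding gene, which left 9959 of 33556 peaks on these chromosomes (34313 in all). The 500 widest of these were taken. They were chosen on f/f width, and their f/f widths are therefore a description.

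H3K27ac is laid down by the acetyltransferases p300 and CBP and marks active promoters and enhancers. At most active promoters it forms a narrow block on the nucleosomes around the transcription start. At some genes it runs on for several kilobases into the gene or into flanking enhancers, and such broad blocks are known at genes that define a cell type, at strongly expressed housekeeping genes and at enhancer clusters. Gata2 encodes a zinc finger protein of haematopoietic stem cells and early progenitors that binds WGATAR sequences together with partners such as LYL1, RUNX1 and FLI1.

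The libraries also differed in sex-linked genes and in the starts of some chromosomes. A gene-end peak at Xist, the RNA that silences an X chromosome in females, was found in f/f alone (2569 bp). Peaks at Uty (1112 bp), Kdm5d (1931 bp) and Eif2s3y (1601 bp), which lie on chromosome Y, were found in KO alone. Genotype and the sex of the source animals cannot be told apart. Chromosomes 4 and 13 began with a stretch that held no KO peak but 27 and 16 f/f peaks, and chromosomes 6, 7, 18 and 19 with one that held no f/f peak but 16 to 98 KO peaks. None of the 500 f/f peaks lay in such a stretch (0), and 3 of the 500 widest KO gene-end peaks did. Of the genes used to check the cell type, Myb, Spi1, Cebpa, Ptprc, Elane and Hoxa10 had a gene-end peak in both lists. Meis1, Mpo and Cd34 had one in f/f alone, of 805, 521 and 578 bp. Hoxa9, the defining MLL-fusion target, had a peak of 3213 bp at its ends in f/f and none within 1000 bp of its ends in KO. Gata2 itself was not among the 500, with gene-end peaks of 1185 (f/f) and 946 bp (KO). Stromal and other-organ genes gave none of the 500 (0 of 4 and 0 of 5 genes with an f/f gene-end peak). With 1 library per genotype no difference below has a replicate check, no p-value is given, and read depth is unknown.

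Sequences of gene starts inside 7 of the 500 peaks are shown because they span what the widest peaks hold, from starts nearly without CpG at lineage genes to dense CpG islands. Each runs from 250 bases before to 50 bases after a RefSeq start (GRCm38.p6, the build of mm10), 5′ to 3′ on the strand of the gene, with every CG in capitals. Elane and Rag2 encode neutrophil elastase and a subunit of the V(D)J recombinase, Lyl1 a partner of GATA2, and Cebpb, Myb and Gfi1 transcription factors of myeloid cells. Stc2 encodes the secreted glycoprotein stanniocalcin-2.
Elane (chr10:79886062-79886361, plus strand): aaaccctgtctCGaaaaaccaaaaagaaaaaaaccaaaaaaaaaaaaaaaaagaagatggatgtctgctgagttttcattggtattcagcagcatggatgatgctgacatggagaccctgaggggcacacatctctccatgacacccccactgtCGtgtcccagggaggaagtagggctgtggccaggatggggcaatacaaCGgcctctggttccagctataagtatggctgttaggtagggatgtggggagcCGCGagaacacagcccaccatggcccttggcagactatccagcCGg
Rag2 (chr2:101624462-101624761, plus strand): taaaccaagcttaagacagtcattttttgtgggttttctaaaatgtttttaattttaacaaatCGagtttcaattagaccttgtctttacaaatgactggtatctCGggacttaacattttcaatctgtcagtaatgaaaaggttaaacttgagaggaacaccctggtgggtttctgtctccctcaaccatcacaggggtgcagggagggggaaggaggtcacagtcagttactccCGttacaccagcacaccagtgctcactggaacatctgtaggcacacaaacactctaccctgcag
Lyl1 (chr8:84701207-84701506, plus strand): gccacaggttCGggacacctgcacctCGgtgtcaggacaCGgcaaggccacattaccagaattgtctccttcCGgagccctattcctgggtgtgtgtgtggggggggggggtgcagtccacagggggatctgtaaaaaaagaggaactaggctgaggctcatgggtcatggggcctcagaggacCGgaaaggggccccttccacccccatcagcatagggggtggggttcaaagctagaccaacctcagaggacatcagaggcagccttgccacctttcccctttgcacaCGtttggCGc
Gfi1 (chr5:107724294-107724593, minus strand): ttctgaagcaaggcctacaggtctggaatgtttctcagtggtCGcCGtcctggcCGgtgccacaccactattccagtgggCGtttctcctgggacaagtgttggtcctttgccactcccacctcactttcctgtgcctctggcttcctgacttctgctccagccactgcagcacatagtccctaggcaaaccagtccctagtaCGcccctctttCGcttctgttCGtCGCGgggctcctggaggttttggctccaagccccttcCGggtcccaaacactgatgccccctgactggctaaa
Stc2 (chr11:31370012-31370311, minus strand): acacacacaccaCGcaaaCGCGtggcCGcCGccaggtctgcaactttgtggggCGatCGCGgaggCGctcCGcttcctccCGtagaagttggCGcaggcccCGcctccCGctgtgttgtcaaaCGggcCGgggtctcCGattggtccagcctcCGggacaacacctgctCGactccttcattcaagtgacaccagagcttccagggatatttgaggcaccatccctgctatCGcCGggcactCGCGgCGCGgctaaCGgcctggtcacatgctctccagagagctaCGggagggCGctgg
Myb (chr10:21160935-21161234, minus strand): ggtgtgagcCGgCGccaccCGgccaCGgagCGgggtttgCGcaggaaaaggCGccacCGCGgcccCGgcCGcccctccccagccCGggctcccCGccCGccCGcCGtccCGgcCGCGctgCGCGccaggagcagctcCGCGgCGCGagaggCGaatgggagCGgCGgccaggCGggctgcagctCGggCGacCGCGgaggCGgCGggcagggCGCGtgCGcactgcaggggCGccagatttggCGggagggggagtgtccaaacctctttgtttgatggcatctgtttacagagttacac
Cebpb (chr2:167688665-167688964, plus strand): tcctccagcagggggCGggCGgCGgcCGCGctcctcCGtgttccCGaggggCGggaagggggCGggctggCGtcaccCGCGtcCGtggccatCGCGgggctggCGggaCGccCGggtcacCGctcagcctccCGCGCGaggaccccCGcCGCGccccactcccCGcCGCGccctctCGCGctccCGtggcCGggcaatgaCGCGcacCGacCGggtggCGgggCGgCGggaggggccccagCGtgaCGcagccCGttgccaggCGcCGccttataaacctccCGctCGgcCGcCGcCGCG

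These windows held 6 CG in Elane, 3 in Rag2, 7 in Lyl1, 10 in Gfi1, 28 in Stc2, 40 in Myb and 50 in Cebpb. The peaks around them were as different under KO. The Gfi1 peak was wider in KO, those of Myb and Cebpb were wholly covered by a KO peak, and those of Rag2 and Stc2 met no KO peak, as detailed below. Rag2 and Stc2 thus share the lack of a KO peak and differ in CG content. The Gfi1 window is at another start than the one used below for distances from gene starts (chr5:107725805), which also lies in the peak.

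The 500 peaks were 3021 to 15807 bp wide with a median of 3647.5 bp, against a median of 1354 bp for the 9459 other f/f gene-end peaks. They were 5.02% of the f/f gene-end peaks and held 13.2% of their bases (2057 of 15539 kb). At the limit lay Sdk2 (3024 bp), Rilpl2 (3023 bp) and Egln2 (3021 bp) just inside, and Ddx39b (3021 bp, placed later by position), Oacyl (3020 bp) and Cabcoco1 (3019 bp) just outside. Greater width did not go with a higher mean enrichment, and the height of summits was not read. The authors' mean fold enrichment had a median of 2.70 in the 500 and 4.92 in the other gene-end peaks, and their −log10 p a median of 35.3 against 56.0. Of the 500, 357 lay below the median −log10 p of the others.

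**Figure D1:**
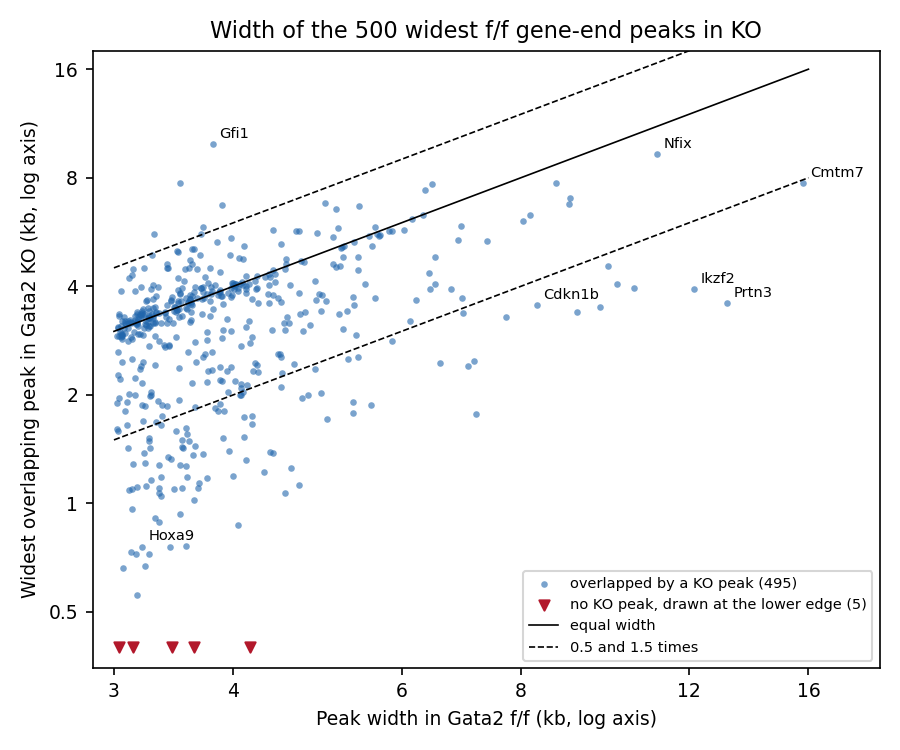
Each point is 1 of the 500 widest f/f gene-end peaks; the x axis is its width in f/f and the y axis the width of the widest KO peak that overlaps it, both in kb on log axes, with lines at equal width and at 0.5 and 1.5 times. Most points lie at or below the line of equal width, Gfi1 lies far above it, and 5 peaks without a KO peak are drawn as triangles at the lower edge.

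Nearly all of these regions were also marked in KO, many over a shorter run. Of the 500, 495 (99.0%, 95% Wilson interval 97.7 to 99.6, counting error only) were overlapped by at least 1 bp of a KO peak, and 5 (1.00%) were not, where 6.31% of all f/f gene-end peaks had none. KO peaks covered 1563 kb of the 2057 kb (76.0%) and left 495 kb uncovered. The other f/f gene-end peaks were covered to 87.7%. The median member had 88.0% of its bases under KO peaks (quartiles 58.2 and 98.2%), against 95% in the others. In a mix of cells, fewer marked cells and less mark per cell cannot be told apart, and a broad call also depends on depth and enrichment, whose part was not tested.

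The width of the widest overlapping KO peak, divided by the f/f width, had a median of 0.912 (quartiles 0.550 and 1.01). In 106 peaks (21.2%) the ratio was at most 0.5, where 8.89% of all f/f gene-end peaks were that much narrower. In 107 it lay between 0.5 and 0.8, in 257 (51.4%) between 0.8 and 1.25, and in 24 between 1.25 and 1.5. It was at least 1.5 in 6 (1.20%), against 5.02% of all f/f gene-end peaks. KO peaks were wider than the f/f peak at 149 of the 500 and covered it wholly at 50. With both lists limited to peaks of at least 3-fold enrichment, and the 500 widest taken again, 65.8% were overlapped, the median ratio was 0.505 and 49.8% had a ratio of at most 0.5. The median coverage was then 47.5%, against 92.6% for the 500 widest KO peaks under f/f. The likeness of both directions given next thus holds for the full lists as deposited. It was not found at this threshold, and it was less close with the lists joined, as given below.

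Because the rule took the top of the f/f widths, the same values were read the other way for the 500 widest KO gene-end peaks, chosen from 10088 in the same way. These were 3096 to 9914 bp wide with a median of 3694 bp. Under f/f peaks 494 of them (98.8%) were overlapped (7.04% of all KO gene-end peaks were not), 75.7% of their bases were covered, and the median ratio of f/f to KO width was 0.889. A ratio of at most 0.5 was found in 103 (20.6%; 9.53% of all KO gene-end peaks), one of 0.8 to 1.25 in 258 (51.6%), and one of at least 1.5 in 20 (4%; 5.0% of all). A ratio of at most 0.5 was thus about as frequent in either direction, and the narrowing of the f/f peaks in KO has its counterpart in the narrowing of the KO peaks in f/f.

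**Figure D2:**
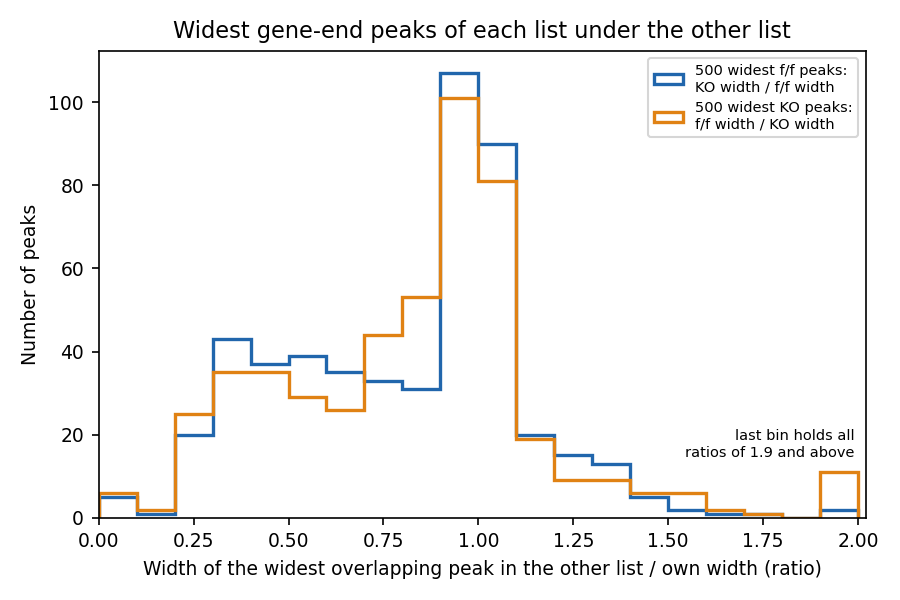
The x axis is the width of the widest overlapping peak in the other list divided by the peak's own width, and the y axis the number of peaks in bins of 0.1; blue are the 500 widest f/f peaks under KO and orange the 500 widest KO peaks under f/f. Both have their tallest bin just below 1 and a shoulder below 0.8, with medians of 0.912 and 0.889.

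Both lists shared much of their widest class. Of the 500 f/f peaks, 290 (58.0%, Wilson 53.6 to 62.2%) overlapped one of the 500 widest KO peaks, and 290 of those overlapped one of the f/f peaks. The 500 f/f peaks lay at 639 genes and the 500 KO peaks at 631, with 373 in common (58.4% of the first and 59.1% of the second). At the far end of the scale the f/f list as deposited held more. Peaks wider than 8 kb numbered 15 in f/f and 3 in KO, and those wider than 6 kb 37 and 23. Those wider than 5 kb numbered 74 and 68, and those wider than 4 kb 176 and 180. These counts depend on how the lists were joined. After the joining described below, the KO peaks at Tspoap1 and Ikzf2 were also wider than 8 kb.

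Splitting was most frequent at the top of the widths, which width itself favours. To meet 2 peaks of the other list, a peak must be wider than the gap between them. No KO gap was shorter than 1498 bp, and among the 5959 narrowest f/f gene-end peaks (424 to 1506 bp) 0% met more than 1 KO peak. The shares over all gene-end peaks below are thus low partly through width alone. More than 1 KO peak lay over 69 of the 500 (13.8%), against 0.753% of all f/f gene-end peaks: 65 were met by 2 KO peaks, 2 by 3 and 2 by 4. Of the 500 widest KO peaks, 42 (8.40%) met more than 1 f/f peak, against 0.416% of all KO gene-end peaks. Among the 100 widest f/f peaks the share was 24% and the median ratio 0.726. Among those ranked 401 to 500 the share was 4% and the ratio 0.961. The 100 widest KO peaks met more than 1 f/f peak in 19%, with a median ratio of 0.764. Of the 495 kb without KO peaks, 337 kb (68.0%) lay outside the outermost KO peak, 141 kb (28.4%) in gaps between KO peaks and 17.4 kb (3.53%) in peaks with none.

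These gaps moved with how the lists were joined. No neighbouring peaks were nearer than 1697 bp in f/f or 1498 bp in KO, and 43 of the 75 KO gaps (57.3%) were shorter than the smallest f/f distance. With KO peaks joined across gaps of up to 1696 bp, an alternative chosen after seeing the data, the share met by more than 1 KO peak was 6% in place of 13.8%. The share with a ratio of at most 0.5 was then 15.0%, and the median ratio was 0.961. With f/f and KO exchanged, 12.4% of the 500 widest KO peaks met more than 1 f/f peak, so that the order of the lists turned around. After this joining the median coverage was 93.4% for the f/f peaks under KO and 85.0% for the KO peaks under f/f. For the regions named below whose ratio moved by over 1.5 times or crossed 1.5, the joined value is given as well. Rilpl2, named above at the width limit, was met by 2 KO peaks that join at this distance, and its joined value is not given.

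The 12 widest peaks were 8698 to 15807 bp wide in f/f and were covered to between 43.4 and 83.6% in KO. The widest of all covered Cmtm7, which encodes a MARVEL-domain membrane protein of blood cells (chr9:114767213-114783019, 15807 bp). KO peaks covered 73.6% of it, in a pair whose wider one was 7748 bp. Next came the cluster of Plppr3, Prtn3 and Elane (chr10:79873986-79887142, 13157 bp), where Prtn3 and Elane encode azurophil granule proteases of neutrophil precursors. There 4 KO peaks, the widest 3597 bp, covered 54.8%. The end of Ikzf2, the Ikaros family factor Helios (chr1:69675983-69688131, 12149 bp), was also met by 4 KO peaks, the widest 3931 bp, and 56.5% was covered. Joining KO peaks across up to 1696 bp left 2 pieces at Ikzf2, the wider 8977 bp, covering 83.2%.

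The run over Trmt1, Lyl1 and Nfix (chr8:84697707-84708813, 11107 bp) met 1 KO peak of 9290 bp, the second widest at a gene end in KO, over 83.6% of its bases. Lyl1 encodes a bHLH partner of GATA2 in stem and progenitor cells, and Nfix a nuclear factor I protein. Tspoap1, which encodes an adaptor of the TSPO complex and lies beside the haematopoietic miRNA gene Mir142, had 10519 bp in f/f (chr11:87746999-87757517). In KO it had a pair of peaks, the wider 3948 bp, over 71.4%, which joined into 1 peak of 9150 bp. The run at B9d2 and Tgfb1 (chr7:25679640-25689713, 10074 bp), the latter the gene of the cytokine TGF-β1, was covered to 72.0% by a pair of KO peaks, the wider 4054 bp. All 3 runs were thus mostly covered in KO, at different degrees of splitting.

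The immediate-early gene Ier2 (chr8:84656486-84666356, 9871 bp) had 52.1% under a pair of KO peaks, the wider 4567 bp. Vps13c, a lipid transfer protein gene (chr9:67837958-67847643, 9686 bp), had 43.4%, the lowest of the 12, with a widest KO peak of 3498 bp. The run at Akt1s1 (chr7:44848694-44857857, 9164 bp) lay at the gene of the mTORC1 inhibitor PRAS40. It met 3 KO peaks over 62.8%, and its widest KO peak was 3405 bp, or 3922 bp after joining. Single KO peaks of 7051 and 6778 bp covered 75.5% at Hmga1, an architectural chromatin protein gene (chr17:27550735-27559734, 9000 bp), and 75.4% at Atg12 and Ap3s1 (chr18:46738555-46747547, 8993 bp). Every one of these 5 had less of its run under KO peaks than the median member (88.0%), as had all of the 12 widest. Among the 100 widest peaks the median was 73.0%, and the runs at Hmga1 and Ap3s1 lay above that.

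At the Hoxa cluster, a direct target of MLL fusions, the breaks between peaks lay at different places in KO. The f/f peak at Hoxa10 and Hoxa11 (chr6:52232557-52241254, 8698 bp) was covered to 54.9%. A KO peak of 7746 bp overlapped its far part and went on across the f/f gap to the next f/f peak at Hoxa11 (chr6:52243151-52246671, 3521 bp), which it covered to 97.8%. The peak at Hoxa7 was 6029 bp wide in f/f, 5715 bp in KO (94.8% covered). Beside it, the peak at Hoxa9 was 3213 bp in f/f and met a KO peak of 759 bp over 23.6%. Within 1 cluster, peaks of similar width, of shifted position and of much smaller width in KO lay side by side. Hoxa9, named for being the fusion's best-known target, was chosen after its values were seen.

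**Figure D3:**
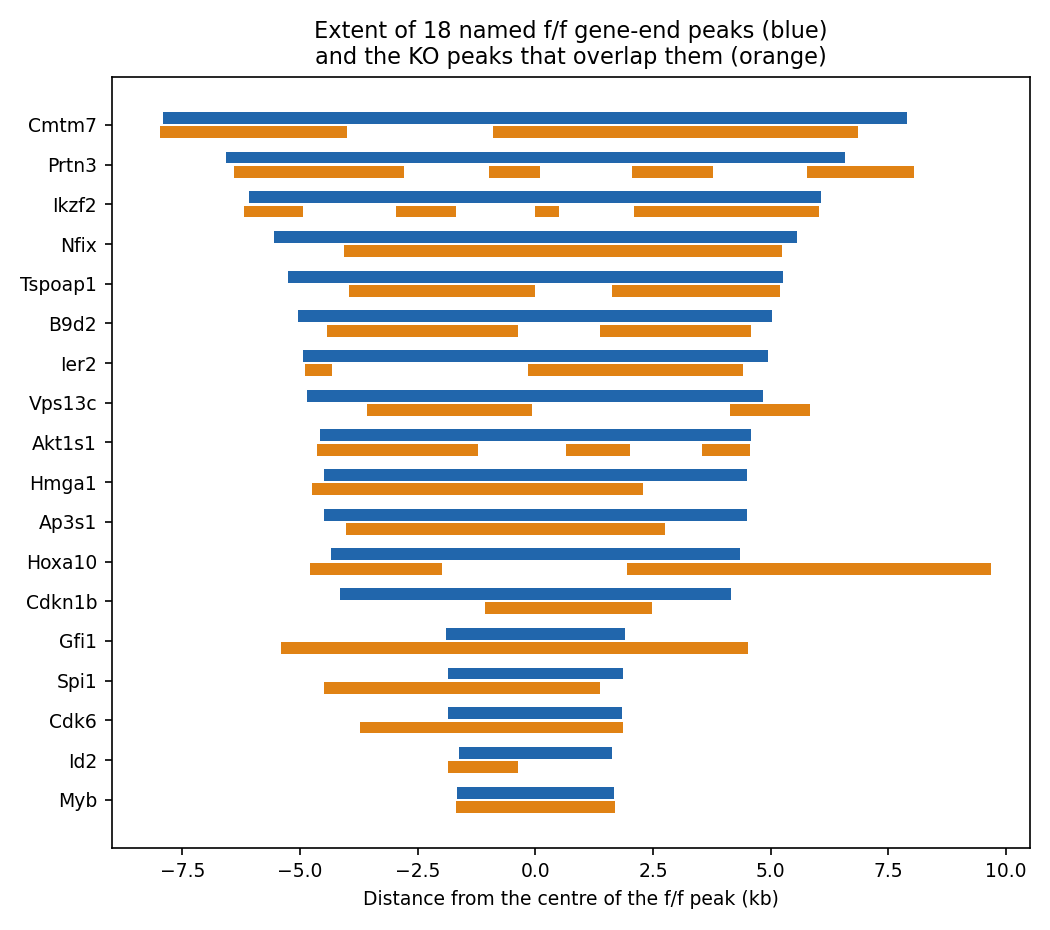
Blue bars are 18 f/f gene-end peaks drawn by distance in kb from their own centre (x axis, 1 row per gene), and orange bars are the KO peaks that overlap them. The rows of Prtn3 and Ikzf2 show 4 KO pieces, that of Nfix 1 KO peak over 83.6% of the run, that of Gfi1 a KO peak of 9914 bp around an f/f peak of 3807 bp, and that of Myb near equal widths.

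At 5 regions no KO peak was found. Itgb7, an integrin β chain of mast cells and lymphocytes, had 3040 bp in f/f with a weak −log10 p of 4.29, and the nearest KO peak lay 228 bp away. Bhlhe41, a circadian repressor gene (3639 bp, −log10 p 4.99), and Rag2 (3454 bp, 7.07) were weak calls too, with the nearest KO peak 10254 and 3064 bp off. Stc2 (chr11:31368616-31371756, 3141 bp) was a strong call with a −log10 p of 57.1, and the nearest KO peak lay 198877 bp away. Neither list had another peak within 100 kb of it (0 and 0). Pcdh7, a protocadherin gene (chr5:57714714-57718878, 4165 bp, −log10 p 18.4), had its nearest KO peak 223256 bp away and 3 other f/f peaks within 100 kb. Itgb7, Bhlhe41, Rag2 and Pcdh7 thus lay below the lower quartile of −log10 p over the 500 (19.1), and Stc2 lay above their median of 35.3.

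The next lowest were Pkd1l1, a polycystin family gene, at 14.9% of bases under a KO peak of 663 bp, Rasa4, a RAS GTPase-activating protein gene, at 17.6% (559 bp), and Pik3r1, the regulatory subunit of PI3-kinase, at 20.0% (2199 bp). Their f/f peaks of 3067, 3168 and 3874 bp were weak as well, with −log10 p values of 4.27, 5.69 and 3.83.

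In the other direction, 6 regions were at least 1.5 times as wide in KO. Gfi1, a zinc finger repressor of granulocyte development, went from 3807 bp (chr5:107723144-107726950) to 9914 bp, the widest KO gene-end peak, a ratio of 2.60. That KO peak spanned 2 f/f peaks, which covered 54.5% of it. Its fold enrichment was 1.66 and its −log10 p 13.5. Hoxa11 had a ratio of 2.20 through the spanning peak described above. Gpr146, an orphan receptor gene, had 3894 and 6715 bp (1.72), and Plac8, a gene of myeloid cells, 3306 and 5576 bp (1.69). Spi1, which encodes the myeloid master factor PU.1, had 3714 and 5858 bp (1.58), and Cdk6, a G1 kinase gene and MLL-fusion target, 3701 and 5590 bp (1.51). Next came Srf, the serum response factor gene, at 3285 and 4897 bp (1.49) and Sort1, a sorting receptor gene, at 3495 and 5001 bp (1.43).

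Among the widest KO gene-end peaks that met none of the 500 were C130050O18Rik (7365 bp, 49.4% under f/f peaks) and Orai1, a calcium channel gene (6846 bp, 50.5%). Mrpl33, a mitochondrial ribosomal protein gene (6591 bp, 16.4%), and C5ar2, a complement receptor gene (6527 bp, 52.4%), followed. These 4 met f/f peaks that were narrower than the limit of the 500, the widest of them 2975 bp.

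The 500 peaks lay at 639 protein-coding genes, 5.96% of the 10724 genes with an f/f gene-end peak. That share is the background for the gene lists below, each given as genes at one of the 500 over genes with an f/f gene-end peak, with the same for the 500 widest KO peaks (5.89% of 10707 genes). The lists were not tested, and wide peaks often hold several genes. In these lists a peak is given under the list gene, even where another gene has more of its body under it.

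**Figure D4:**
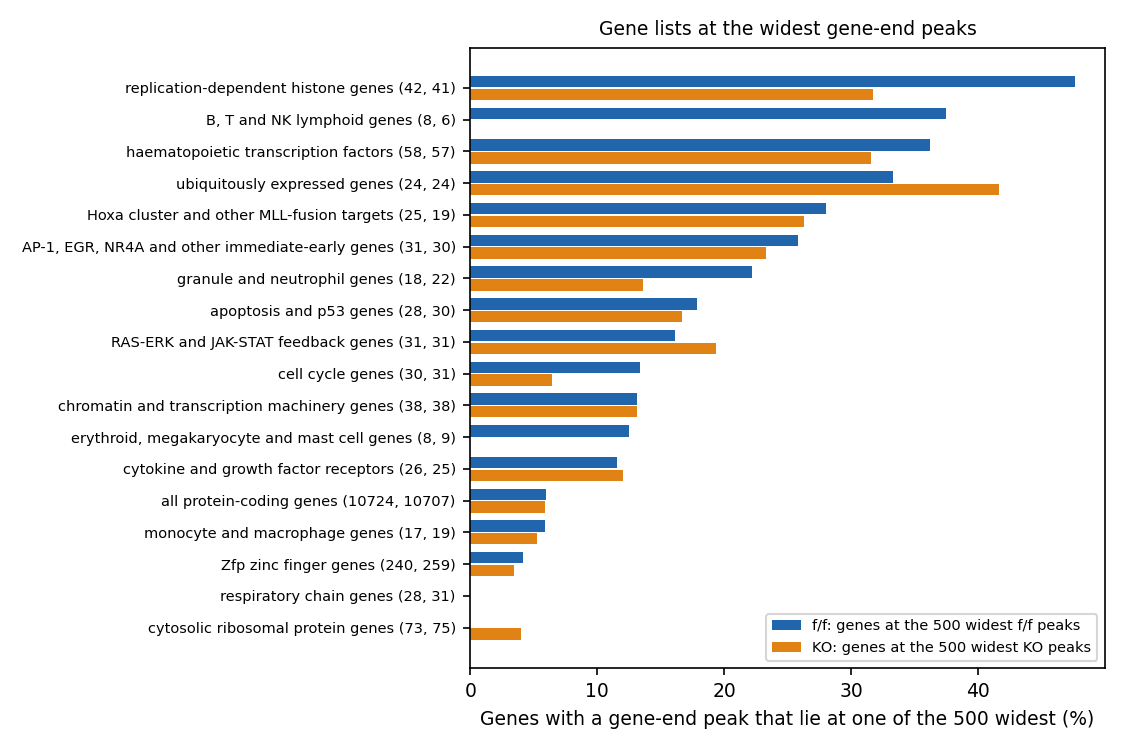
Bars give, for each gene list on the y axis, the percent of its genes with a gene-end peak that lie at one of the 500 widest peaks (x axis), in f/f (blue, numbers of genes in parentheses first) and KO (orange, second). Histone genes reached 47.6% in f/f and 31.7% in KO, haematopoietic transcription factors 36.2 and 31.6%, and all protein-coding genes 5.96 and 5.89%.

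Haematopoietic transcription factor genes were among the most frequent. Of 58 with an f/f gene-end peak, 21 (36.2%) lay at one of the 500, and of 57 in KO 18 (31.6%) lay at one of the 500 widest KO peaks, with 15 in both. Of these 21 regions, 12 were narrower and 9 wider in KO, 4 had a ratio of at most 0.5 and 2 one of at least 1.5, and the median ratio was 0.995. Over all 500, 351 were narrower and 149 wider, 21.2% had a ratio of at most 0.5 and 1.20% one of at least 1.5, and the median was 0.912. Beside Ikzf2 and Lyl1, the widest were Nfe2, an erythroid and megakaryocyte bZIP factor (7725 bp in f/f, 3287 bp in KO, 77.7% covered), and Cebpb, a myeloid C/EBP factor (6458 and 7682 bp, 100%). Then came Id1, an inhibitor of bHLH factors (6326 and 6297 bp, 99.0%), and Foxo3, a forkhead factor (5490 and 4056 bp, 73.9%). Nfe2 joined into 1 KO peak of 7594 bp at up to 1696 bp, a ratio of 0.983.

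Further factors, chosen after their values were seen, showed the same spread. Etv6, an ETS repressor, had 5344 bp in f/f, 1908 bp in KO, and Irf2bp2, an IRF2 cofactor, 4991 and 6793 bp. Myc had 3503 and 3895 bp and Cebpa, the granulocyte C/EBP factor, 3179 and 3105 bp (94.7% covered). Ikzf2, Nfe2, Etv6 and Id2 were the 4 with a ratio of at most 0.5, of which Ikzf2 and Nfe2 left this class after joining, and Gfi1 and Spi1 the 2 with one of at least 1.5.

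Of the Hoxa and other MLL-fusion target genes, 7 of 25 (28.0%) lay at one of the 500, and in KO 5 of 19 (26.3%) at one of the 500 widest. Besides the Hoxa genes and Cdk6 these were Myb, which sustains MLL-fusion leukaemia (3345 and 3376 bp, 100% covered), and Id2, an inhibitor of bHLH factors (3263 and 1488 bp, 38.9%).

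Replication-dependent histone genes, small intronless genes in clusters, had the largest share, with 20 of 42 (47.6%) on only 6 peaks; in KO it was 13 of 41 (31.7%). The peak at H2ac8 (chr13:23570548-23576404) held 5 whole genes and 10 gene ends and spanned 5857 bp (f/f) and 5709 bp (KO). H2ac10 had 5542 and 5529 bp, H2ac11 3051 and 2958 bp, and H3c10 3062 and 2945 bp. H1f1 alone of these was much narrower in KO, at 4794 and 2004 bp (41.8% covered).

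Ubiquitously expressed genes gave 8 of 24 (33.3%), and 10 of 24 (41.7%) in KO. None of the 8 (0) had a ratio of at most 0.5, against 21.2% of the 500, a difference that 8 peaks are too few to show. Actb, the β-actin gene, had 8173 and 6296 bp, and Cfl1, the cofilin gene, 6767 and 3940 bp. The tubulin gene Tuba1b (4128 and 4274 bp), the glycolytic genes Pkm (3624 and 5090 bp) and Eno1 (3364 and 3157 bp), and the chaperone gene Hsp90aa1 (3299 and 3265 bp, 5886 bp after joining, a ratio of 1.78) followed. Other housekeeping classes were rare among the widest peaks. None of 73 cytosolic ribosomal protein genes (0) and none of 28 respiratory chain genes (0) lay there, although Rpl3 (2980 bp), Rps15a (2869 bp) and Sdhb (2813 bp) came near the limit. In KO, 3 of 75 ribosomal protein genes and 0 of 31 respiratory chain genes lay at one of the 500 widest.

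Immediate-early genes, which growth factor signals switch on without new protein synthesis, gave 8 of 31 (25.8%), and 7 of 30 (23.3%) in KO. Besides Ier2 these included Rgs2, a regulator of G-protein signalling (4063 and 2004 bp, 38.4% covered), and Mcl1, an anti-apoptotic BCL2 family gene (3874 and 1890 bp, 47.5%). The mRNA decay factor gene Zfp36l1 had 3800 and 2624 bp. The AP-1 genes Junb (3227 and 4507 bp, 100%, or 6557 bp after joining, a ratio of 2.03) and Jun (3170 and 3193 bp, 99.9%) were not narrower in KO. A further AP-1 gene, Fosl2 (chr5:32135021-32138057), was narrower, with a KO peak of 1962 bp. Of the 8 regions of this list, 5 were narrower and 3 wider in KO.

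Among RAS-ERK and JAK-STAT feedback genes, 5 of 31 (16.1%) lay at one of the 500. None of the 5 (0) had a ratio of at most 0.5, against 21.2% of the 500, which 5 peaks are too few to set apart. These were the phosphatase gene Dusp6 (5081 and 4604 bp), Spry2 (4069 and 4054 bp), the cytokine signalling inhibitors Socs1 (3519 and 3830 bp) and Cish (3174 and 3190 bp), and the phosphatase gene Ptpn6 (3081 and 2968 bp). Their median ratio was 0.996, and 6 of 31 lay at the widest KO peaks. The peak at Ptpn6 (chr6:124738752-124741832) held the start of another gene, Grcc10, and no other start from the promoter table.

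Apoptosis and p53 genes gave 5 of 28 (17.9%), and 5 of 30 in KO. Bid, a pro-apoptotic BH3 gene, had 5870 and 2822 bp (48.1% covered), and Bax, a pore-forming BCL2 family gene, 4152 and 3196 bp (62.2%). The peak at Bax (chr7:45458737-45462888) held the start of another gene, Ftl1, and no other start from the promoter table. Trp53 had 3198 and 3348 bp (99.6%). Bcl2a1a had 4530 and 3033 bp (54.1%), but its near-identical copies make read placement there uncertain. Of the 5, 4 were narrower in KO, as were 351 of all 500.

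Cell cycle genes gave 4 of 30 (13.3%), and 2 of 31 (6.45%) in KO. The CDK inhibitor genes Cdkn1b (8311 and 3554 bp, 42.8% covered) and Cdkn2d (5192 and 5151 bp, 99.2%) differed from each other. Ccnd2, the cyclin D2 gene, had 3161 and 722 bp (37.5%), yet with KO peaks joined across up to 1696 bp it had 1 peak of 2858 bp, a ratio of 0.904. Chromatin and transcription machinery genes gave 5 of 38 (13.2%) in both lists. They were the SWI/SNF subunit gene Arid1a (5417 and 6697 bp), the bromodomain gene Brd2 (4402 and 4453 bp), the elongation kinase gene Cdk9 (3879 and 3751 bp), and the MLL fusion partner genes Mllt10 (3784 and 3312 bp) and Mllt3 (3093 and 1910 bp).

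Lineage lists had few genes with a gene-end peak, so that their shares rest on 1 to 4 genes. Granule and neutrophil genes gave 4 of 18 (22.2%), and 3 of 22 (13.6%) in KO. They were Elane and Prtn3 in their shared peak, Ms4a3, a gene of granulocyte and monocyte progenitors (5378 and 2936 bp, 70.0% covered; 1 KO peak of 6544 bp after joining, a ratio of 1.22), and Ctsg, the cathepsin G gene (3245 and 3657 bp, 99.5%). Lymphoid genes gave 3 of 8 (37.5%) and none in KO (0 of 6), the surrogate light chain genes Vpreb1 and Igll1 in 1 shared peak (3897 and 2879 bp) and Rag2. Monocyte genes gave 1 of 17 (5.88%), and 1 of 19 in KO; in f/f it was Csf1r, the M-CSF receptor gene (3238 and 1119 bp, 46.0%). Erythroid, megakaryocyte and mast cell genes gave 1 of 8 (12.5%) and none in KO (0 of 9); the 1 gene was Fli1 (3424 and 2731 bp, 79.8%). Of the cytokine receptor genes 3 of 26 (11.5%) lay there, and 3 of 25 (12%) in KO; the f/f genes were Csf1r, Il4ra (4047 and 3952 bp) and Ifngr1 (3511 and 3293 bp).

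C2H2 zinc finger genes named Zfp gave 10 of 240 (4.17%), and 9 of 259 (3.47%) in KO, where all genes gave 5.96 and 5.89%. Zfp91 had 6588 and 2456 bp, Zfp516 5823 and 5706 bp, Zfp750 4537 and 4766 bp and Zfp971 4125 and 1316 bp, or 4247 bp in KO after joining (a ratio of 1.03), followed by Zfp526 (3969 and 4884 bp) and Zfp74 (3751 and 1173 bp). Of the 10, 5 had a ratio of at most 0.5, against 21.2% of the 500, and Zfp971 left these 5 after joining.

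Wide peaks took in more and shorter genes. Of the 500, 127 lay at 2 or more genes (25.4%), against 17.6% of the other gene-end peaks, and 37 (7.40%) held a whole gene, against 0.455%. A wider window reaches more gene ends by its size alone. The genes at the 500 had a median length of 15.2 kb, and those with other f/f gene-end peaks only 22.0 kb. In 12 genes both ends, or neighbouring runs, gave 2 of the 500 peaks each, among them Hoxa11 and Trmt1. Within 25 kb of another of the 500 lay 51. By chromosome the share of f/f gene-end peaks that were among the 500 ran from 2.68% on chromosome 14 to 6.25% on chromosomes 5 and 7.

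Around gene starts, the wide peaks reached out to both sides. A start from the promoter table lay inside 85.4% of the 404 peaks with a gene in it, and inside 83.5% of the other gene-end peaks with one. In 283 peaks with the start of exactly 1 gene, the peak ran a median of 1494 bp upstream and 2473 bp downstream, against 475 and 844 bp in 5793 other gene-end peaks. The downstream side was the longer in 169 (59.7%), against 78.6% in the others. KO peaks covered 73.1% of the upstream and 80.8% of the downstream bases. The same shares for the widest KO peaks under f/f were 72.5 and 78.0%. A KO peak lay over the start itself in 261 of the 283, running a median of 948 bp upstream and 1808 bp downstream where the f/f peaks ran 1570 and 2435 bp. The start was thus usually under a KO peak, with shorter flanks on both sides. Peaks chosen on f/f width tend to have shorter flanks in another list through that choice. Flank lengths were not read the other way, and the covered shares were similar in both directions.

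**Figure D5:**
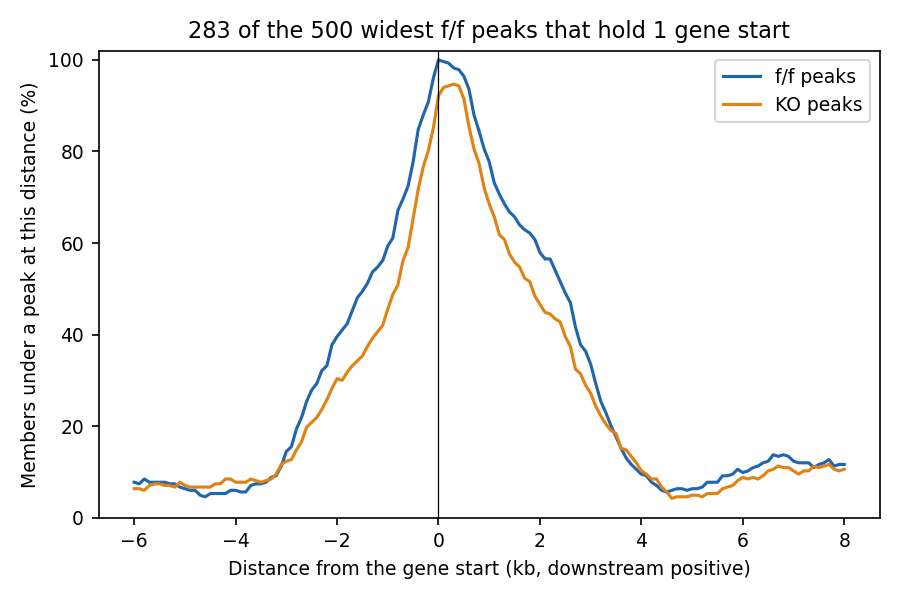
The x axis is the distance from the gene start in kb (downstream positive) and the y axis the percent of the 283 peaks with exactly 1 gene start that have an f/f peak (blue) or a KO peak (orange) at that distance. By construction f/f is at 100% at the start. KO lies below it from 2 kb upstream to 2 kb downstream, in peaks chosen on f/f width.

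In base composition the starts inside the 500 peaks were less often CpG-rich than other marked starts. Starts of a gene were counted separately, and windows were 300 bases. In 514 starts of 418 genes the median CG count was 20, against 23 in 8205 starts in other f/f gene-end peaks and 5 in 11366 starts without one. At most 10 CG were found in 23.0, 11.1 and 68.8%. Motifs were searched on both strands. CCGGAAG, the core bound by ETS factors, was found in 12.8% of the starts inside the 500, 22.2% in other marked starts, and 11.9% of all 20085. GATAA, the core bound by GATA factors, was found in 14.2, 13.7 and 28.8% of the same 3 sets as above, and in 22.3% of all starts. TATAAA was found in 8.95% of the starts inside the 500 and 5.58% of other marked starts, and CCAAT in 38.1 and 38.4%. In peaks with a ratio of at most 0.5 (106 starts) GATAA was found in 12.3%, and in those with 0.8 to 1.25 (274 starts) in 15.0%. The longer GATAAG, which contains GATAA, was found in 2.83 and 7.30%, and CCGGAAG in 19.8 and 12.04%. For GATAAG the share was 5.64% in the starts inside the 500, 4.24% in other marked starts and 6.91% in all starts. These shares were not tested. A match of letters is not a bound site, and enhancer sequence in the rest of each peak was not read.

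The 500 peaks also held 11 of the 919 miRNA hairpins on these chromosomes, 5.35 per Mb, against 55 and 4.08 per Mb in the other f/f gene-end peaks. KO peaks overlapped 10 of the 11 by at least 1 bp. The mature miRNAs (RefSeq, GRCm38.p6) of 3 wide peaks are shown because they are abundant in blood cells or leukaemia, with the seed, bases 2 to 8, in capitals. They were chosen after their values were seen.
miR-142a-5p: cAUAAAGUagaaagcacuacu
miR-142a-3p: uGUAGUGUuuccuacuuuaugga
miR-21a-5p: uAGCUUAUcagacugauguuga
miR-191-5p: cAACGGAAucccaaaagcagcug
miR-425-5p: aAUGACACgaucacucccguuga

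The 16 mature miRNAs in the 500 peaks had 16 distinct seeds, so that none share one. Mir142, the haematopoietic miRNA gene, lay in the Tspoap1 peak described above and under a KO peak. Mir21a lay in the peak at Vmp1 (4482 bp in f/f, a KO peak of 3619 bp, 64.5% covered), in the uncovered part, and was the 1 hairpin of the 11 without a KO peak (chr11:86584067-86584158). Mir191 and Mir425 lay in the peak at Dalrd3 (4248 bp, a KO peak of 2321 bp, 54.1% covered). The KO peak held the Mir191 hairpin (chr9:108568319-108568392) whole and ended within that of Mir425 (chr9:108568777-108568861).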

How the data were processed

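H3K27ac ChIP-seq was compared between 1 Gata2 f/f and 1 Gata2 KO library, grouped by the labelled genotype. The authors aligned reads to mm10 with BWA, used SAMtools and called peaks with MACS2, per the submitters' processing notes; broad mode follows from the format of the lists. Their versions and options, duplicate handling, control library and read depth were not given in the sources used here. Each deposited peak has a position, a score (not used), a fold enrichment over background (a ratio) and −log10 p- and q-values by the authors, which were used only to describe or filter peaks within a list.

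Protein-coding genes came from RefSeq (GRCm38.p6; 20665 on chromosomes 1 to 19, of which 79.6% have a gene start in the promoter table). Overlap needed 1 bp, and bedtools 2.31.1 gave the same count of overlapped peaks. Values were computed with Python 3.11.15 and pandas 2.3.3, and the scripts were tested on simulated data. Shares carry Wilson intervals that cover counting error only.

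A peak is named by the gene with most of its body under it, then by the nearer end, predicted genes last. In the gene lists it is given under the list gene instead. For example, the peaks given there under Zfp91, Zfp526, Ptpn6 and Trp53 are Lpxn, Dedd2, Grcc10 and Wrap53 by the rule. The rule names the 12 widest peaks, the 8 least covered, the 8 with the highest ratio, the 5 with most gene ends, 3 on each side of the width limit, the 5 widest KO peaks meeting none, and up to 6 genes per list (2 for contrast where none). Up to 8 promoters could be printed. A few genes named by this rule are not reported here. Members and lists were chosen with earlier results of these data known. Histone genes were matched by the newer symbols of the gene table. Alternatives were other thresholds, windows, numbers of peaks and joining distances, and regions without blank chromosome starts.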

Additional observations from a re-analysis of the deposited data

How the results depend on the processing

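Of 93 recomputed values under 11 alternatives, 64 stayed within their tolerance and 29 moved. Some of the 64 had little room to move. Joining across 1000 bp repeated the main values, and none of the 500 lay in a blank chromosome start. The number of genes, 639, was allowed to range from 426 to 958.5. Whether a direction reversed was not scored. With a −log10 q of at least 5, 97.4% were overlapped and 10.2% met more than 1 KO peak. Requiring at least 3-fold enrichment moved most: 65.8% overlapped, median coverage 47.5%, median ratio 0.505, 49.8% at most 0.5 times as wide, 0% at least 1.5 times, 36.8% meeting one of the widest KO peaks, 92.6% median coverage of the widest KO peaks, and 0.40% meeting more than 1 KO peak. With the 250 widest these were 99.6% overlapped, 75.5% covered, a ratio of 0.782, 52.4% meeting one of the widest KO peaks, 81.6% for the KO peaks, 334 genes and 18.8% with more than 1 KO peak. With the 1000 widest they were 93.9% covered, a ratio of 0.961, 17.1% at most 0.5 times as wide, 64.6%, 91.1%, 1255 genes and 7.5%. Joining both lists at the f/f distance, chosen after seeing the data, gave 93.4% covered, 0.961, 15.0% at most 0.5 times as wide and 6% with more than 1 KO peak; with the summed KO width 12.6% were at most 0.5 times as wide. The cause of these moves was not tested, beyond the number of regions taken. Joining across 1000 bp changed nothing, because no neighbouring peaks lie that near. No paired analysis was possible because each genotype has 1 library, and for the same reason none could be left out. Read depth is unknown and limits what a missing or shorter peak shows.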
